A study of Mus musculus with 24 samples.

Results

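Klf2, Klf4, Klf6 and Klf10 are 4 of the 17 Krüppel-like factor genes measured in mouse brain hemispheres shortly after a stroke-like occlusion. They were chosen by gene symbol, each has 1 probe set on the array (TC0800000823.mm.2 for Klf2, TC0400002694.mm.2 for Klf4, TC1300000028.mm.2 for Klf6 and TC1500001410.mm.2 for Klf10), and they are 4 of 19505 genes with a row of their own. The 24 arrays come from 12 male C57Bl/6j mice aged 8 to 10 weeks, with 1 array for each hemisphere. Occlusion of the middle cerebral artery (MCAO) for 90 min, by the intraluminal method, was done in 8 mice, and 4 mice had sham surgery. The MCAO mice were killed 30 min later, which was 2 h from onset, and no times were assigned to the sham mice here. The mice were perfused with cold saline before the ipsilateral and contralateral hemispheres were taken apart and frozen. A sample is the RNA of a whole hemisphere, so tissue inside and outside the territory of the artery is mixed in it. A lower signal in such bulk RNA cannot tell fewer cells of a type from less RNA per cell.

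Krüppel-like factors are transcription factors whose 3 zinc fingers bind GC-rich and CACCC-type DNA, and several of them are induced within minutes to hours by growth factors, shear stress or injury. Klf2 and Klf4 are best known from endothelium, where laminar flow induces both through the kinase ERK5 and MEF2 factors and where they favour an antithrombotic, anti-inflammatory state. Klf6 is a broadly expressed factor induced by injury, and Klf10 is an early target of TGF-beta signalling. All 4 are commonly called inducible. In these hemispheres 0 of the 4 passed the test across all probe sets in any of the 5 comparisons, with or without 4 arrays that stand apart, and Klf4 passed in 1 comparison when arrays were weighted by quality. They are therefore called by their names below.

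The promoters of Klf2, Klf4 and Klf6 are shown because binding of MEF2 factors near the start of Klf2 is among the best known inputs to the family. RefSeq (GRCm38.p6) gave a sequence for 3 of the 4 genes. The 250 bases before the start site are printed 5′ to 3′ on the strand of the gene, at chr8:72318812-72319061 (+) for Klf2, chr4:55532476-55532725 (-) for Klf4 and chr13:5861239-5861488 (+) for Klf6. Capitals mark GC boxes (GGGCGG on either strand), half-sites of the cyclic AMP response element (TGACG on either strand) and the MEF2 site.
Klf2: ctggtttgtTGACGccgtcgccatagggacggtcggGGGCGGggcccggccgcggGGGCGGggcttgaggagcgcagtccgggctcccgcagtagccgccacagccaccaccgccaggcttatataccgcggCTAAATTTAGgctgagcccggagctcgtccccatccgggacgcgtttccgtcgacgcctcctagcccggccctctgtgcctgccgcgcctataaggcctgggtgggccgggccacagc
Klf4: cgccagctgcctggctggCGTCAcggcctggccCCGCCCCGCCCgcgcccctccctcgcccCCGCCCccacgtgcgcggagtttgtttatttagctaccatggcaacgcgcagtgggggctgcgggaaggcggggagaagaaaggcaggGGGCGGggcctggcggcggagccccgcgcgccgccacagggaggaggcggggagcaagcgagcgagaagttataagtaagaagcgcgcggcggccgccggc
Klf6: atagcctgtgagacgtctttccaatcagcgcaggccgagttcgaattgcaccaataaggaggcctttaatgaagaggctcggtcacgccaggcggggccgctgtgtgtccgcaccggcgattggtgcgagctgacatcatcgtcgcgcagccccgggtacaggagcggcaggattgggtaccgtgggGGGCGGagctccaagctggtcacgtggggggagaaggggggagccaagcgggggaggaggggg

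The 3 promoters were searched on both strands over 300 bases, which adds the 50 bases from the start site on. They are GC-rich, at 69.3% for Klf2, 74.3% for Klf4 and 63.0% for Klf6, against a median of 53.0% over 32544 promoters of the same length. The Klf2 promoter holds the MEF2 site CTAAATTTAG at positions -118 to -109 counted from the start site, and 3.2% of all promoters hold a match to that motif. It also has 2 GC boxes and 1 half-site TGACG, motifs present in 35.9% and 20.9% of promoters, and 1 CACCC box, present in 57.7%. The Klf4 promoter has 4 GC boxes, of which the outermost pair share 1 base, and 1 half-site TGACG. It also holds the palindrome CACGTG. The core ACGTG bound by hypoxia-inducible factors matches there once on each strand, so the 2 overlapping matches are 1 place. The Klf6 promoter has 1 GC box, 4 CCAAT boxes and the same ACGTG core as 2 overlapping matches. ACGTG occurs in 19.7% of all promoters and CCAAT in 37.4%. No match to the AP-1 site TGANTCA (7.8% of promoters), to TATAAA (13.6%) or to the serum response factor's CArG box (1.6%) lies in any of the 3 windows. A match describes the letters only.

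Before the values, 4 arrays have to be set apart, namely both hemispheres of MCAO mouse 3 and both of sham mouse 1. Their median correlation with the other 20 arrays was 0.328 to 0.550, against 0.981 to 0.989 among those 20. The negative controls of each array had a 95th percentile, used below as the level a signal must pass to count as above background, of 7.41 to 7.61 on the 4 arrays and 5.17 to 5.74 on the 20, in log2 units. None of the 4 Klf genes passed that level on any of the 4 arrays. Each result is therefore given over all 24 arrays and over the 20, the latter with 7 MCAO and 3 sham mice. Markers of neurons, astrocytes and oligodendrocytes were all above background on all 20 arrays, while the 4 choroid plexus markers were above it on none.

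Klf2 was a dim probe set that was brighter on arrays of MCAO mice. In the ipsilateral hemisphere of MCAO mice other than mouse 3 its log2 signal was 5.14 at the lowest, 5.52 at the median and 5.99 at the highest, with 4.65 in mouse 3. In the contralateral hemisphere the same mice gave 4.53, 5.23 and 5.98, with 4.29 in mouse 3. Sham mice 2, 3 and 4 gave 4.68, 4.85 and 4.63 ipsilaterally and 4.63, 4.73 and 4.93 contralaterally, with 3.96 and 4.93 in sham mouse 1. On the 20 arrays every ipsilateral MCAO value lay above every ipsilateral sham value, whereas the contralateral groups overlapped through MCAO mice 5 and 8. Such an ipsilateral separation held for 1.4% of all probe sets. The signal passed background in 4 of 8 ipsilateral and 2 of 8 contralateral MCAO hemispheres and in 0 of 8 sham hemispheres, so the sham level is only a bound. Taken against that background level, no ratio of Klf2 above 1 could be given for MCAO over sham, and the Klf2 values below are differences of measured signal, not fold changes of the transcript.

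Klf4 was near or below background on nearly all arrays. Its ipsilateral signal in MCAO mice other than mouse 3 was 4.25 at the lowest, 5.03 at the median and 5.32 at the highest, with 4.09 in mouse 3. Contralaterally these mice gave 4.09, 4.61 and 5.64, with 4.28 in mouse 3. Sham mice 2, 3 and 4 gave 4.01, 3.17 and 3.98 ipsilaterally and 3.86, 3.19 and 3.72 contralaterally. Sham mouse 1 was the brightest sham mouse on both sides, at 4.24 and 4.74. On the 20 arrays every MCAO hemisphere of either side lay above every sham hemisphere of either side, although the closest values, 4.09 and 4.01, were near each other. That held for 0.0315% of all probe sets, by a criterion chosen after the values had been seen. Klf4 passed background in 2 of 8 ipsilateral, 1 of 8 contralateral and 0 of 8 sham hemispheres. The same limit holds for its values below.

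Klf6 was well above background on all 20 arrays. Ipsilaterally the MCAO mice other than mouse 3 gave 7.43 at the lowest, 7.76 at the median and 8.07 at the highest. Their contralateral hemispheres gave 6.95, 7.25 and 7.69. Sham mice 2, 3 and 4 gave 7.05, 6.64 and 7.12 ipsilaterally and 6.94, 6.86 and 7.13 contralaterally. The ipsilateral MCAO hemispheres were thus the brightest of the 4 groups and did not overlap ipsilateral sham hemispheres, while the contralateral groups overlapped. The ipsilateral separation held for 1.4% of all probe sets. Mouse 3 gave 4.50 and 3.67 and sham mouse 1 gave 3.59 and 5.85, below all 20 other arrays.

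Klf10 was also above background on all 20 arrays, and its groups overlapped throughout. MCAO mice other than mouse 3 gave 6.29 at the lowest, 7.04 at the median and 7.32 at the highest ipsilaterally. Contralaterally they gave 6.31, 6.72 and 7.17. Sham mice 2, 3 and 4 gave 6.33, 6.82 and 6.40 ipsilaterally and 6.71, 6.34 and 6.49 contralaterally. The ipsilateral hemisphere of MCAO mouse 5 was dimmer than those of all 3 sham mice. Mouse 3 gave 4.11 and 3.49 and sham mouse 1 gave 4.56 and 3.36, again far under the others.

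**Figure D1:**
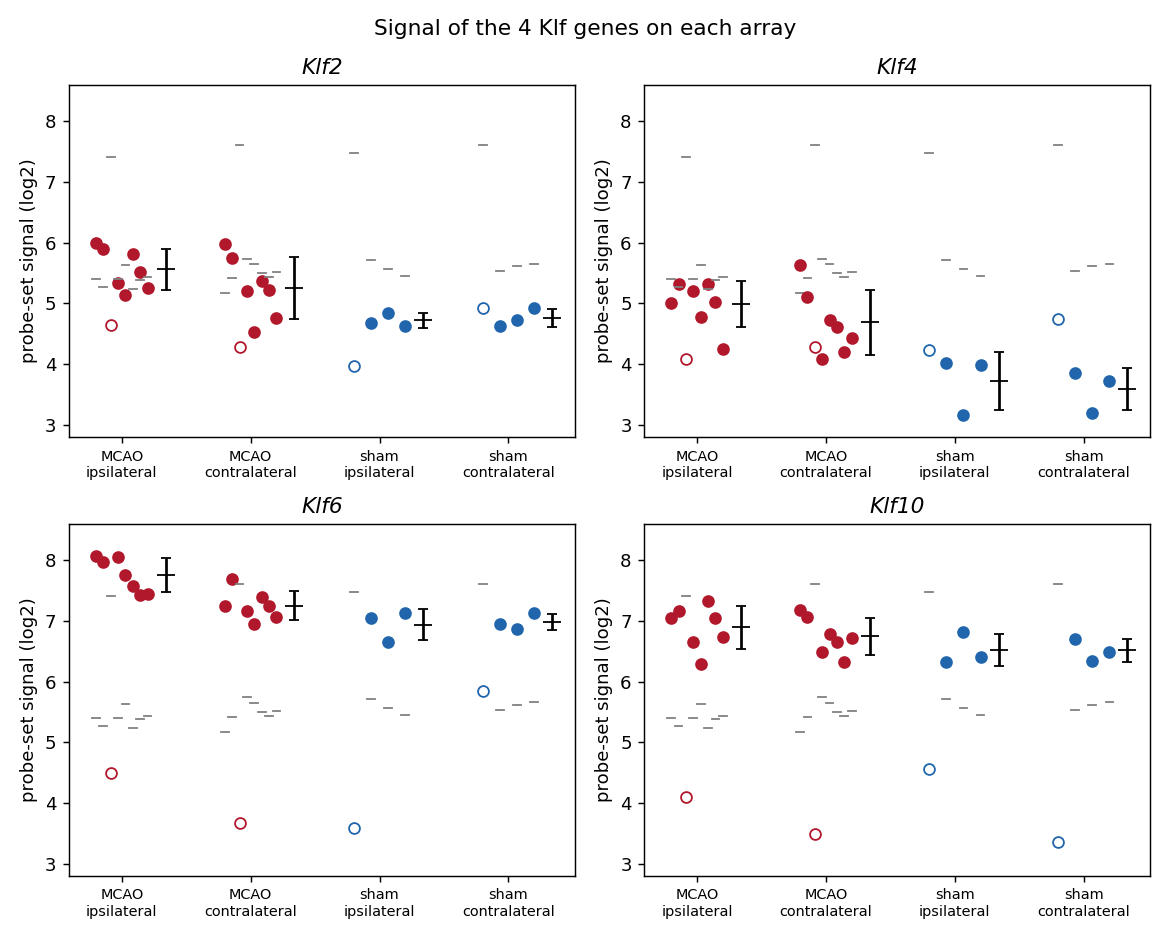
Log2 probe-set signal of Klf2, Klf4, Klf6 and Klf10 on each of the 24 arrays, by surgery and hemisphere (red, MCAO; blue, sham); open circles are the 4 arrays that stand apart, grey dashes mark the 95th percentile of the negative controls of the same array, and black bars give the mean and SD without the open circles. Filled points of Klf6 and Klf10 lie above the grey dashes, and most points of Klf2 and Klf4 do not. For Klf4 all filled MCAO points lie above all filled sham points, as for 0.0315% of all probe sets.

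The first comparison asked whether the occluded side differed from the opposite side of the same mouse. The ipsilateral signal of Klf6 was the higher one in 8 of 8 MCAO mice, by 0.18 to 0.89 on the log2 scale. In mouse 3 both Klf6 signals were below background, and without it the count was 7 of 7. Klf2 was also higher ipsilaterally in 8 of 8 mice, by 0.01 to 0.61. In mice 3, 4, 5 and 8 its signal was below background on both sides. Klf4 was higher in 5 of 8 mice and Klf10 in 6 of 8, and both had mice clearly to the other side, with -0.62 for Klf4 in mouse 1 and -0.50 for Klf10 in mouse 5. Without mouse 3 each was higher in 5 of 7 mice, and most Klf4 signals were below background. An ipsilateral signal above the contralateral one in every MCAO mouse was found in 0.707% of all 22206 probe sets on all arrays and in 1.22% without the 4 arrays.

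None of these side differences passed limma's test with the mouse as a block, for which the threshold was an adjusted p of 0.05 (Benjamini-Hochberg over all probe sets). On all arrays Klf6 differed by 0.55 ± 0.21 (SE, 8 mice, limma adjusted p = 0.94). Without the 4 arrays its difference was 0.51 ± 0.11 (7 mice, unadjusted p = 0.000438, limma adjusted p = 0.147). That is a ratio of 1.42 with a 95% confidence interval from 1.21 to 1.67. Klf2 differed by 0.31 ± 0.13 on all arrays (adjusted p = 0.94) and by 0.30 ± 0.09 without the 4 (unadjusted p = 0.00641, adjusted p = 0.449). Klf4 differed by 0.24 ± 0.17 and by 0.30 ± 0.17, with adjusted p of 0.94 and 0.807. Klf10 differed by 0.21 ± 0.17 and by 0.15 ± 0.14, with adjusted p of 0.94 and 0.919, and its ratio without the 4 arrays had an interval from 0.892 to 1.38. Hence 0 of 4 genes passed, where 0.0856% of all probe sets (19, all higher) passed on all arrays and 0.135% (30) without the 4. Without MCAO mouse 8 alone, 10 probe sets passed. At an unadjusted p under 0.05 there were 2 of 4 genes, Klf2 and Klf6, in both sets of arrays, against 4.13% of all probe sets on all arrays and 7.1% without the 4.

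Sham mice give the background of the side comparison. Their Klf6 side difference was 0.10 in mouse 2, -0.22 in mouse 3, -0.01 in mouse 4 and -2.26 in mouse 1. The last value comes from arrays on which Klf6 was below background. Klf2 gave 0.05, 0.12 and -0.30 in sham mice 2, 3 and 4 and -0.97 in mouse 1. The Klf4 differences of these mice were 0.16, -0.02, 0.26 and -0.51 in the same order, and those of Klf10 were -0.38, 0.48, -0.09 and 1.20. Without sham mouse 1 the sham side differences of all 4 genes had means between -0.04 and 0.13, and 0 of 4 genes passed at either threshold in either set of arrays. Klf2 and Klf4 were below background in every sham hemisphere, so their sham side differences are of dim signals only. The background here was 0% of probe sets at the adjusted threshold in both sets, and 6.26% on all arrays and 5.49% without the 4 at an unadjusted p under 0.05.

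**Figure D2:**
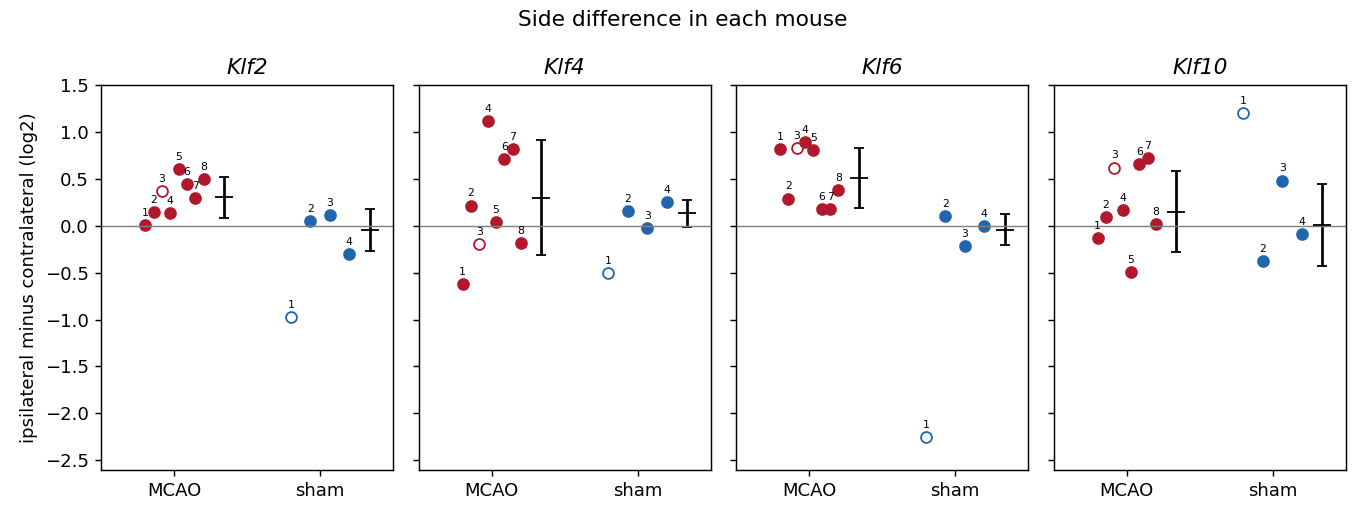
Ipsilateral minus contralateral log2 signal of Klf2, Klf4, Klf6 and Klf10 in each mouse, numbered, by surgery (red, MCAO; blue, sham); open circles are MCAO mouse 3 and sham mouse 1, and black bars give the mean and SD of the other mice. Klf6 is above 0 in all 8 MCAO mice, although below background in mouse 3, and at most 0.10 in sham mice. Klf4 and Klf10 straddle 0 in both groups.

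Whether the side difference of MCAO mice exceeded that of sham mice was tested as an interaction. For Klf6 every MCAO mouse had a larger side difference than every sham mouse, with 0.18 as the smallest MCAO value and 0.10 as the largest sham value. That held for 0.288% of all probe sets on all arrays and 1.07% without the 4, and for none of the other 3 genes. The Klf6 interaction was 1.14 ± 0.36 on all arrays (unadjusted p = 0.0053, limma adjusted p = 0.891) and 0.55 ± 0.20 without the 4 (unadjusted p = 0.016, limma adjusted p = 0.737). The size on all arrays thus rests on sham mouse 1, whose own side difference was -2.26. The measured signal of Klf2, below background in sham mice, had an interaction of 0.59 ± 0.23 on all arrays and 0.35 ± 0.17 without the 4 (unadjusted p = 0.0199 and 0.0628, adjusted p = 0.891 and 0.85). For Klf4, with the same limit, the estimates were 0.27 ± 0.30 and 0.17 ± 0.32. For Klf10 they were -0.10 ± 0.30 and 0.14 ± 0.26, with opposite signs. In both sets of arrays 0 of 4 genes passed, as did 0% of all probe sets. At an unadjusted p under 0.05 there were 2 of 4 genes on all arrays (background 5.12%) and 1 of 4, Klf6, without the 4 (background 5.91%).

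Ipsilateral hemispheres were compared between MCAO and sham animals, on MCAO arrays that also enter the side comparison. Klf2, Klf4 and Klf6 had every MCAO mouse above every sham mouse on the 20 arrays, which was so for 1.4% of all probe sets. On all arrays none of the 4 genes was so separated (0.117% of probe sets).

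For Klf2 and Klf4, which were below background in every sham hemisphere, the measured means are given without a difference. The mean Klf4 signal on all arrays was 4.87 ± 0.47 (SD, n = 8) in MCAO and 3.85 ± 0.47 (n = 4) in sham mice (unadjusted p = 0.00494, limma adjusted p = 0.968). Without the 4 arrays it was 4.99 ± 0.38 (n = 7) and 3.72 ± 0.48 (n = 3) (unadjusted p = 9.47e-05, limma adjusted p = 0.0584). With arrays weighted by quality in place of being left out, Klf4 passed with a limma adjusted p of 0.00828, as did 0.225% of all probe sets (50) under the same weights. The mean Klf2 signal was 5.45 ± 0.45 and 4.53 ± 0.39 on all arrays, and 5.56 ± 0.34 and 4.72 ± 0.12 without the 4, with adjusted p of 0.968 and 0.165. Klf6 was 1.25 ± 0.75 higher on all arrays and 0.82 ± 0.18 without the 4, with adjusted p of 0.968 and 0.142. The latter is a ratio of 1.76 with a 95% confidence interval from 1.36 to 2.29. Klf10 was 0.52 ± 0.58 and 0.38 ± 0.20 higher, with adjusted p of 0.968 and 0.716. Leaving out single mice moved the Klf6 difference from 0.41 without sham mouse 1 to 1.66 without MCAO mouse 3, and that of Klf10 from 0.03 to 0.87 without the same mice. Thus 0 of 4 genes passed, against 0.0045% of all probe sets on all arrays (1 probe set) and 0.149% without the 4 (33 probe sets). Without MCAO mouse 3 alone 17 probe sets passed, and without each of MCAO mice 1, 2, 5 and 8 and each sham mouse alone 0 passed. At an unadjusted p under 0.05 there were 2 of 4 genes on all arrays, Klf2 and Klf4, against 1.01% of probe sets, and 3 of 4 without the 4 arrays, Klf6 included, against 7.48%.

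The contralateral hemisphere is the side opposite to the occlusion. The mean Klf4 signal there was 4.64 ± 0.52 (SD, n = 8) in MCAO and 3.88 ± 0.64 (n = 4) in sham mice on all arrays (unadjusted p = 0.0499, limma adjusted p = 0.997). Without the 4 arrays it was 4.69 ± 0.54 (n = 7) and 3.59 ± 0.35 (n = 3) (unadjusted p = 0.0015, limma adjusted p = 0.988). The mean Klf2 signal was 5.14 ± 0.59 and 4.81 ± 0.15 on all arrays, and 5.26 ± 0.51 and 4.76 ± 0.15 without the 4. Klf6 was 0.11 ± 0.63 and 0.27 ± 0.15 higher, and Klf10 was 0.61 ± 0.74 and 0.23 ± 0.18 higher. In this comparison 0 of 4 genes and 0% of all probe sets passed in both sets of arrays. At an unadjusted p under 0.05 there was 1 of 4 genes, Klf4, in both, against 0.365% of probe sets on all arrays and 4.59% without the 4. Only Klf4 of the 4 had every contralateral MCAO value above every contralateral sham value, and only without the 4 arrays (0.779% of probe sets, against 0.0495% on all arrays).

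Both hemispheres of every MCAO mouse lay above both hemispheres of every sham mouse for Klf4 and for 0.0315% of all probe sets (7 of 22206) without the 4 arrays, a criterion chosen after the values had been seen. Of these Klf4 signals, 3 of 14 from MCAO and 0 of 6 from sham hemispheres were above background.

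**Figure D3:**
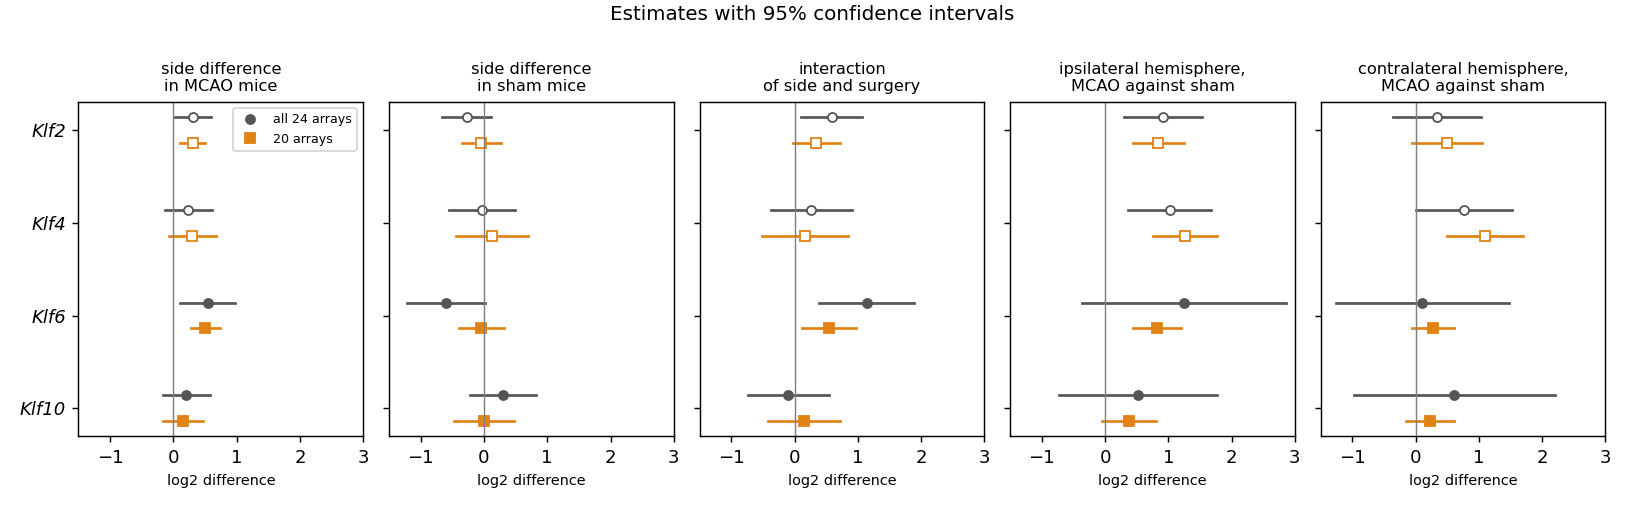
Log2 differences of the 4 Klf genes with 95% confidence intervals from limma in the 5 comparisons, on all 24 arrays (grey circles) and on the 20 arrays (orange squares); open symbols mark Klf2 and Klf4, which were not above background on all 20 arrays, so that their positions are differences of measured signal only. Intervals of Klf6 and Klf10 between animals narrow when the 4 arrays are left out, and the Klf10 interval without the 4 arrays includes 0 in every panel.

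The other 13 Klf genes gave no call in any of the 5 comparisons, in which 0% to 0.149% of all probe sets passed. At such shares 0 calls among 13 genes tell little about them. In MCAO mice the median side difference of the 13 was -0.0036 on all arrays and -0.01 without the 4. All probe sets had medians of -0.0021 and -0.0048. The 4 genes above had 0.27 and 0.30, but they were chosen with earlier results of these data known. Their higher median is thus no evidence about the family, and it includes the dim signals of Klf2 and Klf4. Of the 13, 5 were above background on all of the 20 arrays and 6 on none. Klf15, a glucocorticoid-responsive factor, had a side difference of -0.35 ± 0.12 on all arrays and of -0.31 ± 0.10 without the 4, with limma adjusted p of 0.94 and 0.502. Klf9, a hormone-responsive factor and a repressor in neurons, differed by 0.33 ± 0.24 on all arrays and by -0.01 ± 0.07 without the 4, so its value turned sign with the 4 arrays.

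**Figure D4:**
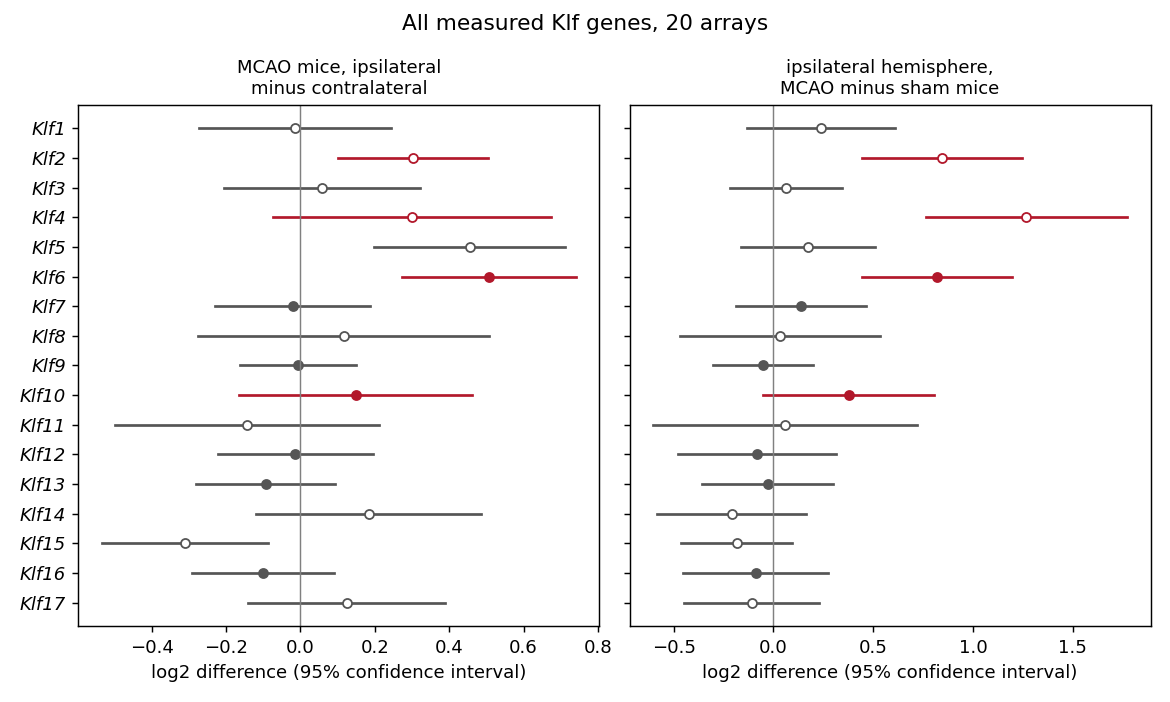
Log2 differences with 95% confidence intervals of all 17 measured Klf genes on the 20 arrays, for the side comparison in MCAO mice (left) and for ipsilateral hemispheres of MCAO against sham mice (right). Klf2, Klf4, Klf6 and Klf10 are red, and open circles mark genes not above background on all 20 arrays, whose positions are differences of measured signal and carry no order. Of the filled circles, Klf6 lies at 0.51 on the left and 0.82 on the right.

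Genes that act before or after the 4 factors were followed as lists, and the members and their partners were chosen with earlier results of these data known. Of the 11 genes of the MEKK3, MEK5, ERK5 and MEF2 route and of the cerebral cavernous malformation complex, which restrains it, 0 passed in any comparison. The side difference of their median member without the 4 arrays was -0.04. Pdcd10, a cavernous malformation gene, differed by 0.33 ± 0.12 and Krit1, another, by 0.13 ± 0.12, with limma adjusted p of 0.576 and 0.915. Of 6 measured genes for serum response factor and its cofactors 0 passed, with -0.33 ± 0.09 for Mrtfa, a cofactor released by actin assembly. Elk3, a ternary complex factor, was above background on 0 of 20 arrays. Of 14 measured TGF-beta pathway genes, the route to Klf10, 0 passed, and 3 were above background on none of the 20 arrays. Tgfbr1, a receptor of that pathway, differed by 0.24 ± 0.08 and Smad4, the shared signal transducer, by 0.02 ± 0.08.

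Genes known to respond to Klf2, Klf4 or Klf6 gave no call either, at the same low shares of all probe sets, and many of them were below background. No list of Klf10 targets was read. Of 8 genes induced by Klf2 or Klf4 in endothelium 0 passed in any comparison, with 3 above background on all of the 20 arrays and 3 on none. Nppc, a natriuretic peptide, was above it on 9 of 20 and differed between sides by 0.09 ± 0.10, and Nos3, the endothelial nitric oxide synthase, was above it on 0. Of 7 measured genes that Klf2 or Klf4 repress there 0 passed, with 1 above background on all 20 arrays and 3 on none. Edn1, the vasoconstrictor endothelin, was above it on 3 of 20 and Ccl2, a chemokine for monocytes, on 0. Of 7 genes described as targets of Klf6 0 passed, with 2 above background on all 20 arrays and 3, among them the urokinase gene Plau, on none. Of 13 cofactors and ubiquitin ligases of Klf proteins 0 passed, with 0.18 ± 0.11 for Fbxw7 and 0.07 ± 0.12 for Wwp1, both ligase genes. Of the 8 measured Sp factors, the closest relatives of the Klf family, 0 passed, with -0.08 ± 0.09 for Sp1, and 4 of them, Sp8 included, were above background on none of the 20 arrays.

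Immediate early transcription factors outside the family, induced by neuronal activity and ischemia, were read beside them on the same arrays. This list too was chosen with earlier results of these data known, so its counts beside those of all probe sets are no evidence of enrichment. In the MCAO side comparison 7 of 10 passed with a higher ipsilateral signal on all arrays, where 0.0856% of all probe sets passed. Without the 4 arrays 9 of 10 so passed, where 0.135% of all probe sets passed. The medians of the 10 were 1.25 and 1.41. The 7 were Fos, Fosb, Jun, Junb, Nr4a1, Atf3 and Npas4. Without the 4 arrays Npas4, a factor specific to neurons, rose by 2.70 ± 0.41 and Fos by 2.13 ± 0.23 (limma adjusted p = 0.0211 and 0.00237). Jun rose by 0.70 ± 0.09 (adjusted p = 0.00435), beside a side difference of 0.51 ± 0.11 for Klf6. Fosb rose by 1.94 ± 0.21, Junb by 1.37 ± 0.12 and Nr4a1 by 1.39 ± 0.20. Npas4 was above background on 12, Fos on 15, Atf3 on 7 and Ier2 on 6 of the 20 arrays. The values of Npas4 and Fos are thus of partly dim signals, and none is given for Atf3 and Ier2. The counts and medians include these dim genes. In the ipsilateral comparison with sham mice 0 of 10 passed on all arrays, against 0.0045% of all probe sets. Without the 4 arrays 9 of 10 passed with a higher signal in MCAO mice, against 0.149% of all probe sets that passed. Contralaterally 0 of 10 and 0% of all probe sets passed.

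Markers of the cells that could carry these genes were read on the same arrays. Of 8 endothelial markers 0 passed in any comparison, where 0% to 0.149% of all probe sets passed. Only 5 of the 8 were above background on all of the 20 arrays, and the others were on 10 to 18. Without the 4 arrays the median difference of the 8 was 0.08 between sides in MCAO mice. Against sham mice it was 0.14 ipsilaterally and 0.13 contralaterally. The log2 of their summed linear signals, in which bright markers weigh most, was then read on the 20 arrays. It was 9.91 to 10.14 in ipsilateral and 9.82 to 10.30 in contralateral MCAO hemispheres, against 9.84 to 9.99 and 9.76 to 9.84 in sham hemispheres. Slco1a4 and Abcb1a, transporters of brain vessels, had side differences of 0.19 ± 0.12 and 0.13 ± 0.08 in MCAO mice. Against sham mice the 8 markers differed by -0.23 to 0.89 ipsilaterally and by -0.10 to 0.68 contralaterally, the highest in both being Cldn5, a tight junction gene named here after its values were seen. The log2 of summed linear signals was also taken ipsilaterally for other cells on the 20 arrays. For the 6 pericyte and smooth muscle markers it was 9.60 to 10.05 in MCAO and 9.92 to 10.04 in sham mice. For the 6 microglia markers it was 8.91 to 9.27 and 8.75 to 9.13. Of these lists, 4 and 2 markers were above background on all 20 arrays. The part of RNA from vessels or microglia in the values of Klf2 and Klf4 was not tested. Of 6 neutrophil and monocyte markers 5 were above background on none of the 20 arrays.

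Genes whose signals ran most like each factor were sought among 8243 genes with a mean above background, by Pearson's r over the 20 arrays. The arrays share mice and surgery groups, so these correlations describe the arrays and carry no test. Klf2 and Klf4 were themselves below background on most of the 20 arrays. Their correlations, over arrays and over side differences, thus rest mostly on dim signals and are not comparable with those of Klf6 and Klf10. For Klf6 the 3 closest were Jun (r = 0.874), Trib1 (0.873), a pseudokinase gene, and Plk2 (0.872), an activity-induced kinase gene. Over the side differences of the 10 mice their r with Klf6 was 0.674, 0.745 and 0.848. For Klf4 they were Slc7a1 (0.890), a transporter of cationic amino acids, Plekho1 (0.836) and Cldn5 (0.826), with 0.702, 0.444 and 0.796 over side differences. For Klf2 they were Jund (0.859), Zfp36 (0.835) and Zfp36l2 (0.830), of which the last pair encode proteins that destabilise mRNA, with 0.491, 0.437 and 0.616. For Klf10 they were Jund (0.837), Tmem121b (0.826) and Irf2bpl (0.825), with 0.647, 0.672 and 0.781. Jund thus stood among the 3 closest genes of both Klf2 and Klf10.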

How the data were processed

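The authors deposited 1 table of log2 probe-set signals, made in a program that the submitters' processing notes name as Affymetrix Expression Console. Sources used here do not give its version, the normalization or the genome build, and the log2 scale is inferred from the values, so ratios rest on it. Of 29129 probe sets, 6923 array controls were left out and 22206 were tested with no filter on signal. Gene symbols came from the platform annotation.

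Within-mouse comparisons were fitted in limma 3.58.1 (R 4.3.3; lmFit and eBayes) on all 24 arrays with the mouse as a fixed block. Both hemispheres come from 1 animal, and on the 20 arrays the deviations of the 2 sides correlated at 0.112 to 0.307 within a mouse (median between mice -0.0425). Comparisons between animals used the 12 arrays of 1 side without a block. A gene passed at a Benjamini-Hochberg adjusted p under 0.05. The code was tested on simulated data. No 2 arrays held identical values. The number of arrays limits the precision. Members, gene lists and the doubt about 4 arrays were chosen with earlier results of these data known. Named were the 4 genes; of each list those past the threshold in the MCAO side comparison on all arrays, otherwise the 2 with the smallest p there; and the 3 genes closest to each of the 4. Figures were drawn with matplotlib 3.10.9.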

Additional observations from a re-analysis of the deposited data

Results flagged for a closer look

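In 7 of the 24 groups of values checked, 1 sample lay far from the others by Dixon's criterion, which chance meets in about 1 in 20 groups. All 7 belong to MCAO mouse 3 or sham mouse 1, whose 4 arrays stand apart. For Klf6, mouse 3 lay at 4.50 ipsilaterally, where the next lowest MCAO mouse had 7.43, and at 3.67 contralaterally, where the next had 6.95. Sham mouse 1 had a Klf6 signal of 3.59 ipsilaterally against 6.64 in the next, and a side difference of -2.26 against -0.22. For Klf10, mouse 3 lay at 4.11 ipsilaterally and 3.49 contralaterally, with the next MCAO mice at 6.29 and 6.31. Sham mouse 1 had a contralateral Klf10 signal of 3.36 against 6.34 in the next. No value of Klf2 or Klf4 was so placed.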

How the results depend on the processing

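Of the values of the 4 genes under the alternatives, 378 kept direction and side of the threshold, 11 reversed and 1 came to pass. The last was Klf4 in the ipsilateral comparison, 1.34 in measured signal with array quality weights, so that 1 of the 4 genes passed. The sham side difference of Klf4 became 0.13 without both arrays of the 2 mice and 0.12 with weights, and ranged from -0.12 to 0.13 when single mice were left out. The Klf10 interaction became 0.14 without the 4 arrays and 0.18 with weights, with a range of -0.32 to 0.20. The contralateral difference of Klf6 became -0.31 after quantile normalization and ranged from -0.18 to 0.55, and that of Klf10 from -0.18 to 1.02. Causes were not tested. Probe sets passing in the MCAO side comparison numbered 19, and became 30 without the 4 arrays, 64 with weights, 6 after quantile normalization, 0 with no replicate block, 29 with the mouse as a random replicate block and 9 with only 1 surgery group in the fit. In the ipsilateral comparison the 1 became 33 without the 4 arrays and 50 with weights. The interaction gave 1 with the random block and the contralateral comparison 1 with weights. With single mice left out the counts ran from 10 to 23 between sides in MCAO mice, from 0 to 1 in sham mice and from 0 to 17 ipsilaterally. The fit without the pairing changed no call of the 4 genes. With only probe sets of a mean above background, Klf2 and Klf4 left the test, and no other probe set of the 4 genes was there to try.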
